A study of Gallus gallus with 24 samples.

Results

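Collagen chain genes were taken as every gene whose symbol in the count tables has the form COL, a number, A and a number, which gave 41 of the 25466 genes listed. They were measured by poly(A) RNA sequencing in DF1, a chicken embryonic fibroblast line grown as a permanent culture. The libraries form 8 groups of 3, made of 2 genotypes, wildtype cells labelled mock and cells with a knockdown of IRF9, each collected 0 h, 30 min, 1 h or 6 h into stimulation. The stimulus was poly(I:C), an artificial mimic of the double-stranded RNA of viruses. IRF9 is the DNA-binding part of the factor that turns on interferon-stimulated genes. Every group, the 0 h groups included, carries the treatment label poly(I:C). No unstimulated library from a later time was analysed here, so an effect of poly(I:C) and one of hours spent in culture cannot be told apart. The labels do not describe how the knockdown was made. They do not say either that replicates came from separate cultures, so each p-value reflects spread among libraries that may be technical.

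Collagens are secreted proteins whose chains wind around one another into a stiff helix. The fibrillar types (I, II, III, V, XI, XXIV and XXVII) build the fibres that give tissues their tensile strength, and type V helps to start and to thin the fibrils of type I. Other types form beaded filaments (VI), basement membrane networks (IV), anchoring fibrils (VII) or proteins that sit on fibril surfaces (the FACIT types IX, XII and XVI among others), and fibroblasts are the main makers of types I, III, V and VI in connective tissue.

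Library totals ran from 12174030 to 19974065 counts. Levels are CPM, a gene's count as a share of the TMM-adjusted size of its library, and 3 counts in a library were worth 0.150 to 0.259 CPM. IRF9, the targeted gene, held 29.1, 27.2 and 26.4 CPM in mock replicates 1, 2 and 3 at 0 h, 45.3, 29.9 and 28.7 at 30 min, 25.0, 28.8 and 27.1 at 1 h and 33.5, 33.1 and 31.9 at 6 h. In the knockdown it held 15.7, 16.0 and 21.6 CPM at 0 h, 12.8, 16.2 and 19.0 at 30 min, 12.2, 14.0 and 19.8 at 1 h and 21.0, 20.9 and 23.2 at 6 h. It was lower in the knockdown in the mean over times (log2 fold change -0.79, SE 0.09, adjusted p = 7.67e-05 by edgeR's quasi-likelihood test with Benjamini-Hochberg adjustment over 13000 genes). The 4 libraries of mock replicate 2 stood apart at every time, at 29.5 to 39.8 on the first principal component against -17.8 to 8.58 in the other 20, so results that rest on them are also given without them. The mock 30 min replicate 1 library had the smallest total and the highest share of reads that were not unique, 4.25%. Among 11 fibroblast markers, 10 had a mean of at least 1 CPM (VIM 1708 CPM, S100A4 0.233 CPM). All 7 chondrocyte and all 6 epithelial markers had a mean under 1 CPM. The symbol KRT19 was not listed, and KRT24, matched to it by synonym, was used in its place.

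DF1 cells carried mRNA for chains of types I, III, V and VI, and for single chains of several minor types. A mean of at least 10 CPM over the 24 libraries was reached by 13 of the 41 genes, 7 lay between 1 and 10 CPM and 21 were under 1 CPM. The filter on low counts passed 22 of the 41, and the changes described further on cover only these. CPM is a share of counts and is not corrected for transcript length, so the values of different chains are not ranked against each other.

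Of the type I chains, COL1A1 (chromosome 27, 2738203 to 2755475 on GRCg7b) had a mean of 1072 CPM (lowest 804, median 1011, highest 2011). COL1A2 (chromosome 2, 23476066 to 23515037), which pairs with it in type I collagen, had 265 CPM (lowest 152, median 259.5, highest 469). The count ratio of COL1A1 to COL1A2 ran from 3.07 to 7.09, and the highest value belonged to the mock 30 min replicate 1 library, with at most 5.66 in the others. The ratio is of counts, and unequal transcript lengths enter it.

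COL3A1 (chromosome 7, 671206 to 805182), the only chain of type III, had 297 CPM (lowest 164, median 272, highest 577). Its neighbour on the same chromosome, COL5A2 (chromosome 7, 558140 to 664771), had 175 CPM (lowest 115, median 163, highest 287), and its type V partner COL5A1 (chromosome 17, 8041836 to 8170255) had 119 CPM (lowest 62.9, median 112, highest 214). COL27A1 (chromosome 17, 5335215 to 5462706), a fibrillar chain best known from cartilage, had 26.1 CPM (lowest 21.0, median 24.1, highest 39.3). Every library of these 4 genes was above 20 CPM, and the highest library of COL3A1, COL5A2, COL5A1 and COL27A1 belonged to mock replicate 2 in each case. The other fibrillar chains were near the counting floor: COL11A1 had a mean of 0.374 CPM, COL24A1 had 29 counts over all libraries and COL2A1, the cartilage chain, had 5. The annotated span of COL2A1 is 2938 bases against 15321 or more for the other 40 chains, so its model may hold only part of the gene.

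Of the 4 type VI chains in the files, COL6A1, COL6A2 and COL6A3 passed the filter. COL6A3 (chromosome 7, 4879364 to 4933213), the largest of them, had 761 CPM (lowest 559, median 745, highest 1143). COL6A2 (chromosome 7, 6816273 to 6842300) had 389 CPM (lowest 294, median 355, highest 639) and COL6A1 (chromosome 7, 6774297 to 6795974) had 86.0 CPM (lowest 52.4, median 80.2, highest 152). COL6A6 was under 1 CPM with 89 counts in all. The loci of COL6A1 and COL6A2 lie close together on chromosome 7, and COL18A1 lies on the same chromosome.

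COL7A1 (chromosome 12, 9256820 to 9281069), the anchoring fibril chain made by keratinocytes and fibroblasts, had 152 CPM (lowest 103, median 148, highest 225). COL18A1 (chromosome 7, 6685037 to 6716104), a basement membrane collagen whose C-terminal piece is endostatin, had 48.6 CPM (lowest 34.4, median 47.9, highest 69.3). COL12A1 (chromosome 3, 80494177 to 80599905), a FACIT chain of tendon and of tissue under tension, had 63.6 CPM (lowest 41.3, median 62.7, highest 85.5), and the FACIT chain COL16A1 had 15.2 CPM (lowest 9.40, median 14.8, highest 23.2). No library of these 4 genes was under 9 CPM. COL18A1 overlaps SLC19A1, COL6A2 overlaps FTCD, COL12A1 overlaps an unnamed protein-coding gene, COL23A1 overlaps HNRNPAB and PHYKPL, and lncRNA genes overlap COL3A1, COL5A1 and COL27A1. The libraries were made with a directional kit, but whether counting used strand is not stated, so reads in these overlaps may be unassigned or shared.

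All 6 type IV genes were under 1 CPM. COL4A1 and COL4A2, the chains found in nearly all basement membranes, had 17 and 3 counts over 24 libraries, and COL4A4 had 0. COL4A5 had 83 and COL4A6 119 counts. COL10A1, the chain of hypertrophic cartilage, and COL15A1 had 5 and 2 counts. Among the transmembrane chains COL23A1 had 9.10, COL25A1 3.75 and COL17A1 3.11 CPM. The FACIT chains COL9A2 and COL9A3 had 2.08 and 1.21 CPM, while COL9A1 had 17 counts in all. COL26A1 had 1.80 CPM and COL8A1, a short network chain, 1.58 CPM. COL9A2 overlaps SMAP2, COL9A3 overlaps TCFL5 and COL8A1 overlaps ST3GAL6 and DCBLD2, so reads there may also be unassigned or shared. The 19 genes that did not pass the filter had means of 0 to 0.308 CPM and at most 119 counts each.

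**Figure D1:**
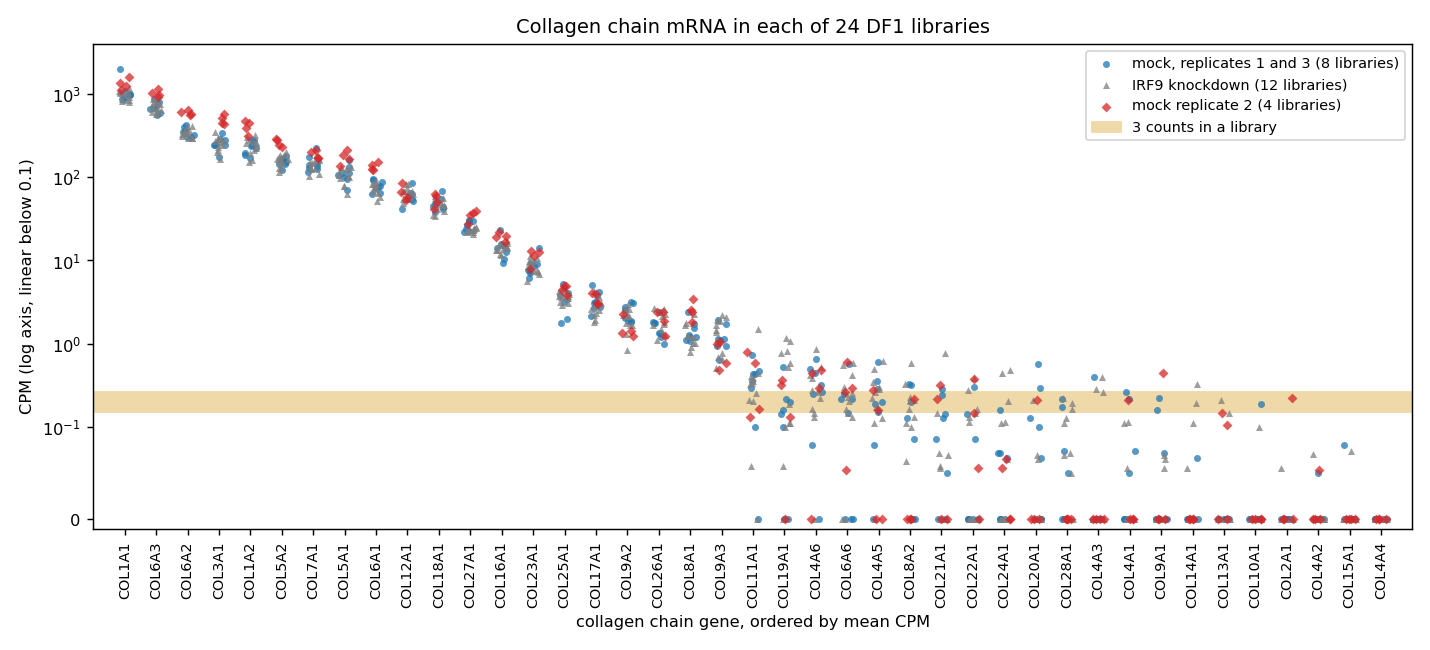
CPM of each of the 41 collagen chain genes in each of the 24 libraries (log axis, linear below 0.1), ordered by mean CPM, with the range that 3 counts are worth in a library as a band. COL1A1 to COL16A1, the 13 genes with means of at least 10 CPM, are well clear of the band in every library, and mock replicate 2 is at the upper edge for most of them.

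The summed CPM of all collagen chains was 4443 to 5435 in the 4 libraries of mock replicate 2 and 2628 to 4648 in the other 20, the highest of which was the mock 30 min replicate 1 library. As a description of replicate 2 against the mean of mock replicates 1 and 3 at the same time, the ratio over the 4 times was 1.7 to 2.14 for COL3A1 and 1.71 to 1.84 for COL1A2. The ratio was 1.61 to 1.83 for COL6A1 and 1.58 to 1.83 for COL6A2. These 4 of the 22 chains that passed the filter (18.2%) were at least 1.5 times higher at all 4 times, a criterion met by 0.662% of all genes tested. Not every chain did so: the ratio was 1.01 to 1.17 for COL18A1, 0.912 to 1.34 for COL12A1 and 0.554 to 0.702 for COL9A3. In knockdown replicate 2 the same ratio for COL3A1 was 0.792 to 1.02. Of the smooth and skeletal muscle markers, 6 of 7 were found, and their summed level, nearly all of it ACTA2, was 188 to 308 CPM in mock replicate 2 and 110.2 to 193 in the other 20 libraries. MYOD1, DES and PAX7 had means under 1 CPM and MYOG had 0. The part of these markers in the collagen levels was not tested.

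**Figure D2:**
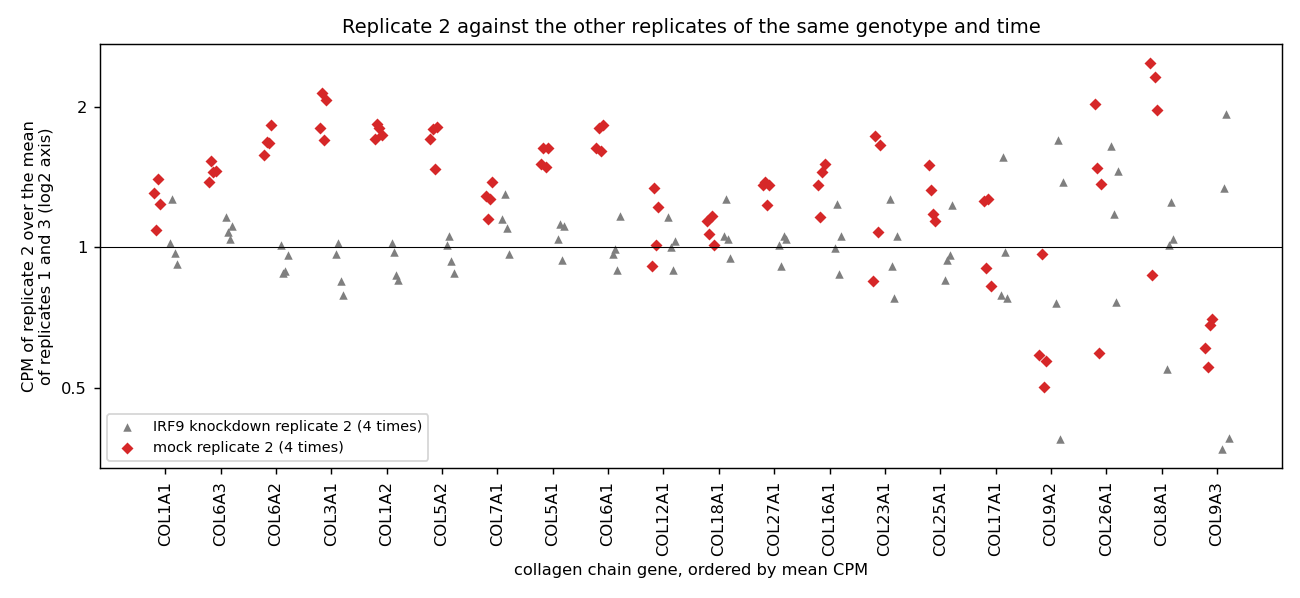
Ratio of the CPM of replicate 2 to the mean of replicates 1 and 3 of the same genotype and time (log2 axis), 4 times per genotype, for 20 of the 22 chains that passed the filter (COL11A1 and COL19A1 are left out because of counts near the floor). Mock replicate 2 is above 1 at all times for COL3A1 (1.70 to 2.14) and below 1 for COL9A3, while knockdown replicate 2 scatters around 1 for the chains of high level.

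The comparison of 6 h with 0 h asked how collagen mRNA changed over time, since an effect of poly(I:C) cannot be told apart from one of hours in culture. Averaged over both genotypes, COL18A1 fell by 0.48 on the log2 scale (SE 0.09, adjusted p = 0.00129) and COL5A1 fell by 0.57 (SE 0.17, adjusted p = 0.044) by edgeR's quasi-likelihood test. These were 2 of the 22 chains tested (9.09%), both lower, where 1.35% of all 13000 genes were called lower and 3.7% higher. DESeq2 called 3 chains and limma voom 2, beside 871 and 685 of the 13000 genes. The fitted value was below 0 for 15 of the 22 chains and 49.9% of all genes, with a median of -0.22 for the chains and 0.00 for all genes. In bulk RNA, fewer cells of a type and less RNA per cell cannot be told apart.

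COL18A1 held 54.2, 59.0 and 49.4 CPM in mock replicates 1, 2 and 3 at 0 h and 44.5, 41.9 and 38.4 CPM at 6 h. In the knockdown it held 56.6, 56.0 and 49.3 CPM at 0 h and 39.4, 35.1 and 34.4 CPM at 6 h. Every 6 h library was below every 0 h library in both genotypes, and mock replicate 2 did not stand apart. Over all genes 5.78% had this pattern in mock and 11.1% in the knockdown. In mock COL18A1 was the 1 chain of 22 (4.55%) that had it. Between these times the mock libraries held 69.3, 62.6 and 48.1 CPM at 30 min and 41.7, 50.7 and 45.2 CPM at 1 h. The knockdown libraries held 46.3, 59.1 and 47.0 CPM at 30 min and 41.6, 47.7 and 49.8 CPM at 1 h. The 30 min values overlapped those at 0 h in both genotypes. The call in the mean over genotypes was kept in all 24 fits that left out 1 library (adjusted p 0.000319 to 0.00553). SLC19A1, the folate carrier gene that overlaps COL18A1, had a log2 fold change of -0.09 (SE 0.07, adjusted p = 0.627) at a mean of 187 CPM.

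COL5A1 held 134, 186 and 112 CPM in the mock libraries at 0 h and 94.8, 135 and 70.6 CPM at 6 h. In the knockdown it held 126, 116 and 97.1 CPM at 0 h and 78.7, 78.4 and 62.9 CPM at 6 h. Each mock replicate was lower at 6 h than at 0 h, but the mock groups overlapped, with replicate 2 the highest at both times, and the knockdown groups did not overlap. The mock libraries held 162, 214 and 101 CPM at 30 min and 113, 164 and 107 CPM at 1 h. The knockdown libraries held 132, 132 and 102 CPM at 30 min and 101, 106 and 126 CPM at 1 h, overlapping 0 h. The COL5A1 call lay near the threshold and was lost in 14 of the 24 fits that left out 1 library, with log2 fold changes of -0.60 to -0.46 and adjusted p from 0.0514 to 0.154 in these. The 14 were mock 0 h replicates 1 and 2, mock 30 min replicate 1, mock 6 h replicates 1 and 3, knockdown 0 h, 30 min and 1 h replicates 1 and 2, and knockdown 6 h replicates 1, 2 and 3. The 5 of these from 30 min and 1 h enter only the shared estimate of the spread, and without them the fold change stayed at -0.57. Without the 4 libraries of mock replicate 2 it was kept (-0.60, adjusted p = 0.00176).

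Without mock replicate 2, 7 of the 22 chains (31.8%) were called lower in the mean over genotypes, where 1.78% of all genes were. Beside COL18A1 and COL5A1 these were COL1A2 (-0.60, adjusted p = 0.00019), COL3A1 (-0.48, adjusted p = 0.00917), COL5A2 (-0.37, adjusted p = 0.00456), COL6A1 (-0.40, adjusted p = 0.0136) and COL7A1 (-0.40, adjusted p = 0.0354). The fold changes moved little, since with all libraries they were -0.59, -0.42, -0.35, -0.36 and -0.37, and the standard errors were larger, for example 0.21 against 0.11 for COL3A1. With all libraries the adjusted p was 0.0702 for COL1A2, 0.0799 for COL7A1 and 0.337 for COL3A1.

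COL1A2 held 243, 448 and 280.0 CPM in the mock libraries at 0 h and 170.0, 311 and 187 CPM at 6 h. In the knockdown it held 259, 267 and 268 CPM at 0 h and 196, 152 and 162 CPM at 6 h. Replicate 2 was the highest mock library at both times, and each genotype's same-numbered libraries were lower at 6 h. Its partner COL1A1 held 1101, 1376 and 999 CPM in the mock libraries at 0 h and 962, 1116 and 841 CPM at 6 h, and 1080.3, 1070.3 and 1024 CPM at 0 h and 1026, 844 and 804 CPM at 6 h in the knockdown. COL1A1 was not called (log2 fold change -0.25, SE 0.13, adjusted p = 0.378, 95% interval -0.53 to 0.03). The count ratio of COL1A1 to COL1A2 went from 4.53, 3.07 and 3.57 to 5.66, 3.59 and 4.49 in mock replicates 1, 2 and 3. In the knockdown it went from 4.18, 4 and 3.81 to 5.23, 5.54 and 4.96, higher at 6 h in every library and not overlapping. No test was run on this ratio.

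COL3A1 held 245, 522 and 337 CPM in the mock libraries at 0 h and 175, 436 and 246 CPM at 6 h, and 271, 263 and 273 CPM at 0 h and 200.2, 164 and 213 CPM at 6 h in the knockdown. COL5A2 held 156, 287 and 180.0 CPM at 0 h and 123, 242 and 144 CPM at 6 h in mock, and 174, 167 and 157 CPM at 0 h and 131, 115 and 131 CPM at 6 h in the knockdown. For both genes the knockdown groups did not overlap and the mock groups did, with mock replicate 2 at 6 h above replicates 1 and 3 of 0 h. COL7A1 held 177, 203 and 137 CPM at 0 h and 129.8, 169 and 116 CPM at 6 h in mock, and 162, 168 and 129 CPM at 0 h and 126, 111 and 103 CPM at 6 h in the knockdown. COL6A1 held 77.9, 142 and 96.2 CPM at 0 h and 62.6, 125 and 73.7 CPM at 6 h in mock, and 75.7, 76.5 and 82.5 CPM at 0 h and 57.2, 63.9 and 52.4 CPM at 6 h in the knockdown. For these 2 genes as well the knockdown groups did not overlap and the mock groups did.

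The other type VI chains, COL6A2 and COL6A3, were not called at 6 h with all libraries or without mock replicate 2. COL6A2 held 354, 612 and 419.7 CPM at 0 h and 302, 569 and 318 CPM at 6 h in mock, and 340.1, 351 and 358 CPM at 0 h and 331, 299.9 and 294 CPM at 6 h in the knockdown (log2 fold change over genotypes -0.20, SE 0.17, adjusted p = 0.637). COL6A3 held 764, 988 and 669 CPM at 0 h and 866, 1143 and 697 CPM at 6 h in mock, and 726, 775 and 606 CPM at 0 h and 764, 787 and 651 CPM at 6 h in the knockdown. The fitted value of COL6A3 was 0.11, SE 0.14, adjusted p = 0.796, with a 95% interval of -0.19 to 0.41. The value fitted for COL6A1 (-0.36) lies outside that interval, but the interval of COL6A1 itself, -0.73 to 0.02, overlaps it. The difference between the chains was not tested. With the replicate number as a block within genotype, COL6A2 was called lower (-0.21, adjusted p = 0.0281), where 4.58% of all genes were. COL6A3 was not called with that block (0.11, adjusted p = 0.3). That block pairs same-numbered libraries within each genotype and not across genotypes. Deviations of same-numbered libraries at 0 h and 6 h were correlated at 0.216 to 0.378 in mock but only -0.00861 to 0.147 in the knockdown. In mock, replicate 2 stood apart at both times, which alone can raise these correlations.

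COL12A1 had the largest positive value among the 12 chains of highest mean CPM, with a log2 fold change of 0.32, SE 0.13, adjusted p = 0.174. It held 62.5, 53.8 and 55.4 CPM at 0 h and 84.7, 85.5 and 55.3 CPM at 6 h in mock, and 68.8, 68.0 and 48.6 CPM at 0 h and 82.8, 75.3 and 63.0 CPM at 6 h in the knockdown. COL12A1 was higher at 6 h in mock replicates 1 and 2, and mock replicate 3 held nearly the same value at both times. With the block within genotype COL12A1 was called higher (0.31, adjusted p = 0.00574), where 6.9% of all genes were. Without mock replicate 2 it was not called by edgeR (0.25, adjusted p = 0.362). COL27A1 held 29.7, 35.4 and 22.5 CPM at 0 h and 27.0, 39.3 and 30.5 CPM at 6 h in mock, and 23.1, 23.3 and 23.0 CPM at 0 h and 23.4, 24.3 and 23.3 CPM at 6 h in the knockdown, with a fitted value of 0.09, SE 0.11, adjusted p = 0.792.

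**Figure D3:**
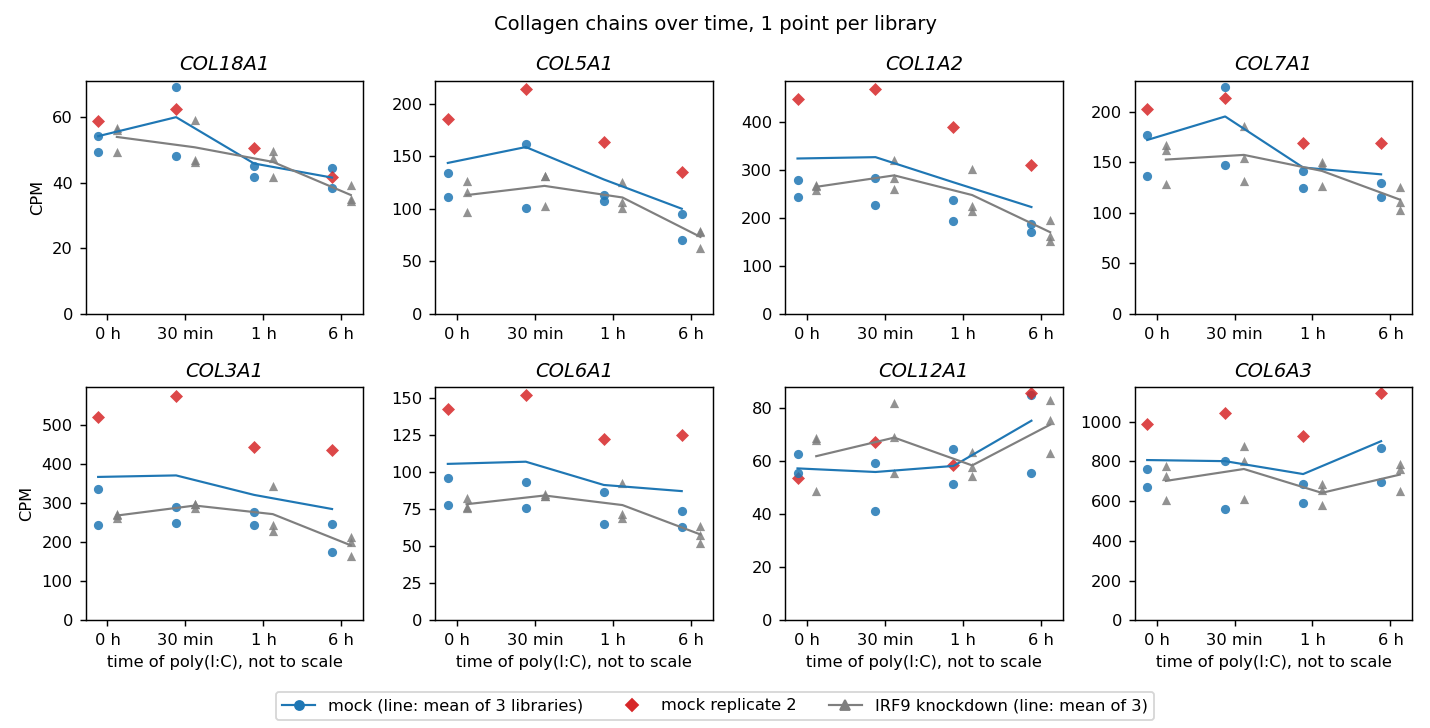
CPM of 8 chains in each library over the 4 times of poly(I:C), with lines through the means of 3 libraries. COL18A1, COL5A1, COL1A2, COL7A1, COL3A1 and COL6A1 are lower at 6 h than at 0 h in the mean of both genotypes, COL12A1 and COL6A3 are not, and mock replicate 2 lies above the other libraries for COL1A2, COL3A1 and COL6A1 at every time.

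Within mock cells alone, 0 of 22 chains were called at 6 h, where 0.231% of all genes were called lower and 1.94% higher by edgeR. 3 chains and 1298 of the 13000 genes had an unadjusted p under 0.05. DESeq2, limma voom and the fit without mock replicate 2 also called 0 chains. The smallest p belonged to COL18A1 (log2 fold change -0.38, SE 0.13, adjusted p = 0.163). With the replicate number as a block within genotype 5 chains were called lower (22.7%, against 1.45% of all genes) and COL12A1 was called higher (against 3.92%). The labels do not say that same-numbered mock libraries belong together. Replicate 2, which stood apart at every time, can by itself make them deviate together. The blocked values were -0.54 for COL5A1 (adjusted p = 0.00101), -0.54 for COL1A2 (adjusted p = 0.001) and -0.40 for COL3A1 (adjusted p = 0.0274). They were -0.38 for COL18A1 (adjusted p = 0.0308), -0.31 for COL7A1 (adjusted p = 0.0476) and 0.37 for COL12A1 (adjusted p = 0.0427). In the edgeR fit with no block and without mock replicate 2, COL12A1 was at 0.24 (adjusted p = 0.868). All 3 mock pairs were lower at 6 h for 11 of the 22 chains and for 20.3% of all genes.

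Within knockdown cells COL18A1 was the 1 chain called of 22 (4.55%), where 0.292% of all genes were called lower. It fell by 0.57 (SE 0.13, adjusted p = 0.0159). The call was lost without knockdown 0 h replicate 1 (adjusted p = 0.089), knockdown 0 h replicate 2 (0.0823), knockdown 6 h replicate 2 (0.0886) or knockdown 6 h replicate 3 (0.0932), with fold changes of -0.54 or -0.55. For 8 of the 22 chains (36.4%) every knockdown library at 6 h was below every one at 0 h, against 11.1% of all genes. These were COL18A1, COL1A2, COL3A1, COL5A1, COL5A2, COL6A1, COL6A2 and COL7A1. Without mock replicate 2, whose spread enters the shared estimate, 4 chains were called lower in the knockdown, COL1A2, COL5A2, COL5A1 and COL18A1 (18.2%, against 0.85% of all genes).

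The difference between the genotypes in the change from 0 h to 6 h was tested directly. 0 of 22 chains and 0% of all genes were called by edgeR, and 1 chain, COL19A1, and 204 of the 13000 genes had an unadjusted p under 0.05. DESeq2, limma voom and the fit without mock replicate 2 called 0 chains. For COL18A1 the difference, knockdown minus mock, was -0.19 (SE 0.18, 95% interval -0.58 to 0.20), and for COL5A1 it was -0.11 (SE 0.33, 95% interval -0.81 to 0.60). The 3 smallest p-values belonged to COL19A1, COL9A3 and COL23A1. COL9A3 held 0.645, 0.479 and 0.928 CPM at 0 h and 1.12, 0.997 and 1.71 CPM at 6 h in mock, and 1.87, 0.697 and 1.90 CPM at 0 h and 1.13, 0.658 and 2.24 CPM at 6 h in the knockdown. COL23A1 held 9.11, 7.82 and 9.34 CPM at 0 h and 7.46, 12.6 and 7.68 CPM at 6 h in mock, and 11.3, 10.8 and 5.70 CPM at 0 h and 7.51, 7.63 and 6.90 CPM at 6 h in the knockdown. COL19A1 is given as counts: 2, 6 and 3 in mock at 0 h and 2, 0 and 0 at 6 h, and in the knockdown 2, 0 and 2 at 0 h and 11, 9 and 1 at 6 h. COL19A1 overlaps COL9A1, and counts this low allow no fold. Its highest counts, 15 and 17 at 30 min and 11 at 1 h and at 6 h, were in knockdown libraries, and no mock library held more than 7. It passed the low-count filter through knockdown libraries alone, so its p-values between genotypes are no support for a difference.

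At 30 min, 0 of 22 chains and 0% of all genes were called in the mean over genotypes by edgeR. No chain and 169 of the 13000 genes had an unadjusted p under 0.05, and DESeq2 and limma voom called 0 chains. The fitted value was above 0 for 19 of the 22 chains, with a median of 0.06, and for 6905 of the 13000 genes, with a median of 0.01. At 1 h, 0 of 22 chains were called by edgeR, against 0.0462% of all genes. 1 chain and 442 of the 13000 genes had an unadjusted p under 0.05, and DESeq2 and limma voom called 0 chains. The fitted value was below 0 for 18 of the 22, with a median of -0.10, and COL18A1 had a log2 fold change of -0.23, SE 0.09, adjusted p = 1. Over all genes 51.3% were below 0 at 1 h. Without mock replicate 2, 16 of the 22 chains were below 0 at 1 h, with a median of -0.08, and 48.7% of all genes. The comparisons at 30 min and 1 h use the same 0 h libraries as the comparison at 6 h. As mean ± SD of 3 libraries, mock COL1A1 held 1533 ± 530.4 CPM at 30 min and 1013 ± 205 CPM at 1 h, and knockdown COL1A1 held 1010.2 ± 158 and 939 ± 121 CPM. COL1A2 held 327 ± 127 and 274 ± 103 CPM in mock and 289 ± 30.7 and 248 ± 47.3 CPM in the knockdown. COL3A1 held 372 ± 179 and 322 ± 107 CPM in mock and 295 ± 6.19 and 273 ± 63.6 CPM in the knockdown. The large SD of the mock groups comes with replicate 2 as the highest library of COL1A2 and COL3A1, and with replicate 1 as the highest of COL1A1 at 30 min.

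At the same 2 times, COL5A2 held 199.8 ± 73.2 and 183 ± 42.8 CPM in mock and 178 ± 11.9 and 170.4 ± 25.6 CPM in the knockdown (mean ± SD, n = 3). COL6A1 held 107 ± 40.0 and 91.2 ± 28.9 CPM in mock and 84.1 ± 0.842 and 77.6 ± 12.8 CPM in the knockdown. COL6A2 held 466 ± 152 and 410.2 ± 133 CPM in mock and 376 ± 36.5 and 342 ± 63.5 CPM in the knockdown. For these 3 chains the mock means were above the knockdown means with SDs of the mock groups that span the gap. COL6A3 held 802 ± 242 and 737 ± 174 CPM in mock and 762 ± 138 and 642 ± 55.4 CPM in the knockdown. COL7A1 held 196 ± 41.7 and 145 ± 22.4 CPM in mock and 158 ± 27.5 and 142 ± 13.0 CPM in the knockdown. COL12A1 held 55.9 ± 13.2 and 58.2 ± 6.49 CPM in mock and 68.8 ± 13.2 and 58.4 ± 4.61 CPM in the knockdown. For COL12A1 the means of the 2 genotypes were within 1 SD of each other at both times. COL27A1 held 30.3 ± 6.48 and 23.9 ± 2.95 CPM in mock and 23.1 ± 1.94 and 23.1 ± 1.86 CPM in the knockdown.

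The comparison of the genotypes asked whether less IRF9 changed collagen mRNA. In the mean over the 4 times 0 of 22 chains were called, and 1 gene of 13000, IRF9 itself, was called (0.00769% of all genes). By edgeR 8 chains and 1398 of the 13000 genes had an unadjusted p under 0.05. DESeq2, limma voom and the fit without mock replicate 2 called 0 chains. The fitted value was below 0 for 18 of the 22 chains (81.8%) and for 52.2% of all genes, with a median of -0.20. Without mock replicate 2 it was below 0 for 12 of the 22, with a median of -0.02.

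The type III, V and VI chains show how far these values rested on the 4 libraries. COL3A1 went from -0.40 (SE 0.15, adjusted p = 0.462) with all libraries to -0.01 without them, with a 95% interval of -0.18 to 0.16. COL6A1 went from -0.40 (SE 0.13, adjusted p = 0.462) to -0.09, interval -0.24 to 0.06. COL5A1 went from -0.35 to -0.09 and COL6A2 from -0.33 to -0.03. COL1A2 and COL5A2, at -0.25 and -0.26 with all libraries, were at 0.08 and 0.04 without them. COL27A1, with the smallest p, had a log2 fold change of -0.31, SE 0.08, adjusted p = 0.462 with all libraries and -0.15 without them (interval -0.29 to -0.00, adjusted p = 1). COL18A1 had a log2 fold change of -0.11 (95% interval -0.24 to 0.03) and COL12A1 had a log2 fold change of 0.10 (95% interval -0.09 to 0.29).

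**Figure D4:**
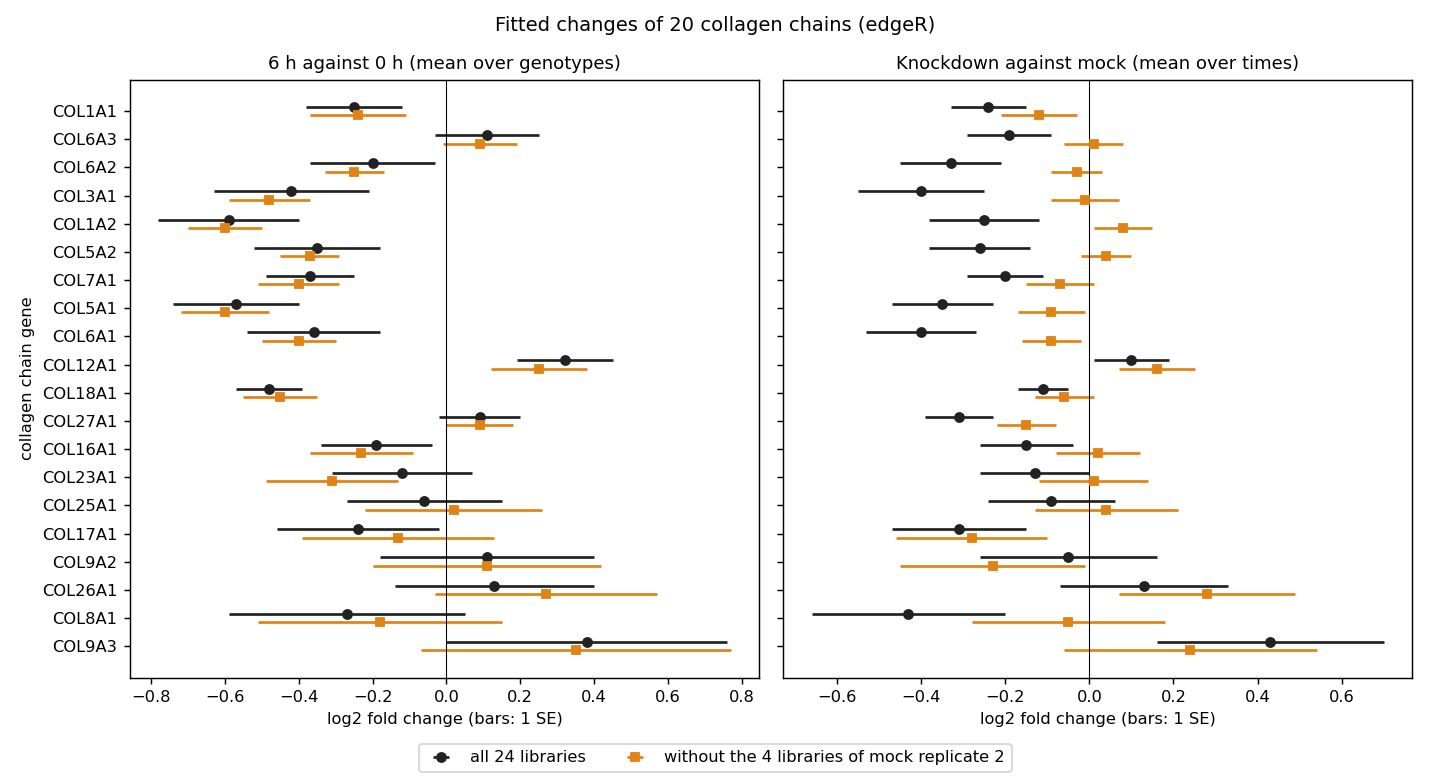
Fitted log2 fold changes with 1 SE for 20 of the 22 tested chains (COL11A1 and COL19A1 left out), at 6 h against 0 h in the mean over genotypes and for knockdown against mock in the mean over times, with all 24 libraries and without the 4 of mock replicate 2. At 6 h the values stay in place and their errors shrink for chains such as COL3A1 and COL1A2, while in the genotype comparison COL3A1 goes from -0.40 to -0.01.

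At single times 0 of 22 chains were called between the genotypes, and 0% of all genes were called at 0 h, 1 h and 6 h and 0.00769% at 30 min. By edgeR 2, 3, 0 and 3 chains had an unadjusted p under 0.05 at 0 h, 30 min, 1 h and 6 h. COL19A1, which passed the filter through knockdown libraries alone, was among them at 30 min and at 6 h. Of the 13000 genes 196, 1732, 302 and 799 did. DESeq2, limma voom and the fit without mock replicate 2 called 0 chains at each time. At 30 min the smallest p belonged to COL1A1 (log2 fold change -0.60, SE 0.19, adjusted p = 0.178). COL1A1 held 2011, 1626 and 963 CPM in the mock libraries at 30 min and 985, 1179 and 866 CPM in the knockdown, with mock replicates 1 and 2 above all 3 knockdown libraries and mock replicate 3 among them. Without mock 30 min replicate 1 the value was -0.36 (adjusted p = 0.911), and without mock 30 min replicate 3 it was -0.84 and passed the test (adjusted p = 0.0104). Over the 24 fits that left out 1 library, the number of all genes called at 30 min ran from 0 to 741, and that of chains from 0 to 1. The smallest p at 0 h belonged to COL27A1 (log2 fold change -0.34, SE 0.16, adjusted p = 0.997), at 1 h to COL23A1 (log2 fold change -0.34, SE 0.27, adjusted p = 1) and at 6 h to COL27A1 (log2 fold change -0.45, SE 0.16, adjusted p = 0.777). COL9A3 at 0 h had a log2 fold change of 1.14, SE 0.54, adjusted p = 0.997 and COL6A1 at 6 h had a log2 fold change of -0.59, SE 0.25, adjusted p = 0.777. COL6A1 at 0 h was at -0.43 (SE 0.25) and COL27A1 at 30 min at -0.38 (SE 0.16, adjusted p = 0.293). At 1 h COL16A1 was at -0.25 (SE 0.22) and COL6A2 at -0.26 (SE 0.24). The fitted value of COL19A1 was above 0 at 30 min and at 6 h. Its counts at 30 min were 0, 5 and 2 in mock and 15, 17 and 2 in the knockdown, too low for a fold.

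Genes that make, bind, cut or regulate collagen were taken as 5 lists. Of 26 tested genes of processing and crosslinking, 2 fell at 6 h in the mean over genotypes and 0 rose, where 1.35% of all genes were called lower and 3.7% higher, with a median of -0.01. SERPINH1, the collagen chaperone HSP47, fell by 0.49 (SE 0.12, adjusted p = 0.0114), from 386, 512 and 411 to 246, 429 and 318 CPM in mock and from 418, 390.3 and 406 to 264, 242 and 301 CPM in the knockdown. COLGALT1, which adds galactose to collagen hydroxylysine, fell by 0.58 (SE 0.16, adjusted p = 0.0366). The SERPINH1 call was kept in all 24 fits that left out 1 library, and the COLGALT1 call was lost in 8 of them, those without mock 0 h replicate 2 or 3, mock 6 h replicate 1 or 3, knockdown 0 h replicate 1 or 3, or knockdown 6 h replicate 2 or 3 (adjusted p 0.0763 to 0.112). P4HB, a subunit of the prolyl hydroxylase and abundant at 672 CPM, had a log2 fold change of 0.05.

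Of 12 tested fibril partners 0 were called by edgeR and limma voom and 1 by DESeq2, and 4 had an unadjusted p under 0.05, with a median of -0.08. Over all genes 5.05% were called by edgeR, and DESeq2 called 871 of the 13000. An unadjusted p under 0.05 by edgeR was found for 2104 of the 13000. Without mock replicate 2, 3 partners were called, 1 higher and 2 lower, where 3.41% of all genes were called higher and 1.78% lower. The 2 called lower are not named here, since names were given by the fit with all libraries. FN1, fibronectin, at 2315 CPM had a log2 fold change of 0.18, SE 0.10, adjusted p = 0.408 and TNC, tenascin C, had a log2 fold change of 0.51, SE 0.16, adjusted p = 0.0731, or 0.43 without mock replicate 2 (adjusted p = 0.00396). Of 6 tested collagen receptors 2 fell, beside the 1.35% of all genes called lower. DDR1, a receptor tyrosine kinase for collagen, fell by 0.64 (SE 0.15, adjusted p = 0.009) and ITGA11, the alpha 11 integrin subunit that binds type I collagen, fell by 0.45 (SE 0.12, adjusted p = 0.0237). The DDR1 call was kept in all 24 such fits. The ITGA11 call was lost in 7, those without mock 0 h replicate 2, mock 6 h replicate 1 or 3, knockdown 0 h replicate 1 or 2, or knockdown 6 h replicate 2 or 3 (adjusted p 0.0506 to 0.1). ITGB1, the shared beta subunit, at 909 CPM had a log2 fold change of 0.10.

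Of 8 tested breakdown genes 2 rose and 0 fell, beside the 3.7% of all genes called higher and 1.35% called lower. TIMP3, an inhibitor of matrix metalloproteinases, rose by 1.98 (SE 0.25, adjusted p = 5.51e-06), from 204, 396 and 301 to 728, 2295 and 1059.6 CPM in mock and from 229, 193 and 269.5 to 840.3, 706 and 843 CPM in the knockdown. MMP9, a gelatinase, rose by 1.58 (SE 0.36, adjusted p = 0.00769), from 0.645, 0.106 and 0.398 to 1.12, 0.775 and 1.52 CPM in mock and from 0.353, 0.557 and 0.503 to 1.27, 1.25 and 1.61 CPM in the knockdown. With a mean of 0.638 CPM, near the 0.150 to 0.259 CPM that 3 counts are worth, the fold of MMP9 rests on few reads. The other gelatinase, MMP2, at 2006 CPM had a log2 fold change of -0.04 and TIMP2 had a log2 fold change of -0.06. The 2 genes that rose are an inhibitor and a protease, and both calls were kept in all 24 fits that left out 1 library.

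Of 19 tested regulators 1 rose and 1 fell, beside 3.7% of all genes called higher and 1.35% called lower. DESeq2 called 5 of the 19 at 6 h in the mean over genotypes, beside 871 of the 13000 genes tested. Without mock replicate 2, 2 of the 19 were called higher and 3 lower. In that fit 3.41% of all genes were called higher and 1.78% lower. CCN2, connective tissue growth factor, had already risen at 1 h (log2 fold change 1.23, SE 0.11, adjusted p = 9.88e-07) and at 6 h was higher by 0.66 (SE 0.11, adjusted p = 0.000272). It held 243, 232 and 284 CPM at 0 h, 634, 527 and 589 at 1 h and 402, 371 and 423 at 6 h in mock, and 253, 251 and 299.5 CPM at 0 h, 624, 634 and 648 at 1 h and 419.8, 413 and 440.0 at 6 h in the knockdown. CCN2 was higher at 1 h than at 0 h in every library of both genotypes. SMAD3, which carries TGF-beta signals to the nucleus, fell by 0.33 at 6 h (SE 0.06, adjusted p = 0.000426). The CCN2 and SMAD3 calls at 6 h in the mean over genotypes were kept in all 24 such fits. YBX1, at 1379 CPM, had a log2 fold change of 0.14. Over the 5 lists, 8 of 71 tested genes were called at 6 h by edgeR with all libraries, where 5.05% of all genes were called in either direction. DESeq2 called 13 of the 71, beside 871 of the 13000 genes tested. Without mock replicate 2, 15 of the 71 were called, where 5.2% of all genes were. Between the genotypes in the mean over times 0 of the 71 were called by edgeR, DESeq2, limma voom or without mock replicate 2. By edgeR 15 of the 71 and 1398 of the 13000 genes had an unadjusted p under 0.05.

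Summed levels of the blood and endothelial markers were higher at 6 h, while those of the other lists overlapped between 0 h and 6 h. The neural markers summed to 3.23 to 6.44 CPM at 0 h and 2.57 to 4.45 at 6 h. The osteoblast markers summed to 28.4 to 37.5 CPM at 0 h and 32.7 to 41.2 at 6 h. The summed level of the 4 blood markers was 11.8 to 16.2 CPM at 0 h and 24.4 to 30.8 at 6 h, nearly all of it CD3E, which rose by 1.08 (adjusted p = 7.21e-07), while PTPRC had a mean of 1.78 and CSF1R of 0.856 CPM. The 4 endothelial markers summed to 1.41 to 3.11 CPM at 0 h and 3.13 to 4.82 at 6 h, most of it PECAM1 (log2 fold change 0.96, SE 0.26, adjusted p = 0.0249, and adjusted p = 0.139 without mock replicate 2), with CDH5, KDR and TEK under 1 CPM. The smooth and skeletal muscle markers summed to 110.2 to 188 CPM at 0 h and 141 to 308 at 6 h, ranges that overlap. ACTA2 had a log2 fold change of 0.34, SE 0.17, adjusted p = 0.345 (adjusted p = 0.000153 with the block within genotype) and MYH11 had a log2 fold change of 0.63, SE 0.27, adjusted p = 0.246. The 10 fibroblast markers tested had a median of 0.06 at 6 h, and 0 were called by edgeR, DESeq2 or limma voom. By edgeR 1 of them and 2104 of the 13000 genes had an unadjusted p under 0.05. The part of these markers in the collagen changes was not tested.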

How the data were processed

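The authors deposited raw HTSeq counts per gene for each of the 24 libraries. The submitters' processing notes name STAR 2.7.11b, HTSeq 2.0.5, Trim Galore 0.6.10, FastQC 0.12.1, edgeR 3.40.2 and build GRCg7b. Whether counting used strand is not stated. The 5 summary lines of each table were left out of library totals: reads with no feature were 14.6% to 18.8% of all lines, ambiguous reads 1.18% to 1.33% and reads that were not unique 3.43% to 4.25%. Gene IDs, coordinates and overlaps came from RefSeq's GRCg7b gene table, in which all 41 collagen symbols were found.

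Counts were fitted in R 4.3.3 with edgeR 4.0.16 (TMM, filterByExpr, quasi-likelihood test) as 8 group means over 24 libraries, with 16 residual degrees of freedom. P-values were adjusted over the 13000 genes tested by Benjamini-Hochberg and a gene was called at an adjusted p under 0.05. Averaged comparisons are means of the 2 genotypes' or of the 4 times' contrasts. The script was tested on simulated data. CPM used TMM-scaled totals, and intervals and count floors cover counting error or the fit's spread only. Each edgeR SE was the absolute log2 fold change divided by the square root of the test's F statistic. The 95% intervals of fold changes used the residual degrees of freedom, 16, or 12 without mock replicate 2. The test also draws on spread across genes, so an interval and a p-value can differ near the threshold. Alternatives used DESeq2 1.42.0, limma 3.58.1 (voom), other scaling and filters, a replicate block, each library left out in turn and all 4 libraries of mock replicate 2 left out.

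Same-numbered mock libraries deviated together (correlations of deviations from group means 0.216 to 0.378 between 0 h and 6 h), so the blocked value stands beside the mock result, as a property of the data and not of the labels. Within-group library pairs differed by more than sampling noise (chi-square per degree of freedom 3.08 to 52.8 over 24 pairs). Named were the 12 chains of highest mean CPM, every chain called and the 3 with the smallest p in each comparison. From the pathway lists, the genes called with all libraries and the 2 of highest mean CPM were named. The members, gene lists and tests were chosen with earlier results of these data known.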

Additional observations from a re-analysis of the deposited data

How the results depend on the processing

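At 6 h against 0 h in mock, 0 chains were called, and 6 with the replicate block within each genotype, though a pairing of the mock libraries was not shown. Over all genes 282 and 699 were called. In the knockdown 1 chain was called, 3 without the low-count filter, 3 with the replicate block over all groups, 7 with the block within genotype, 8 with only the groups compared, 4 without the 4 mock replicate 2 libraries and 0 to 1 when single libraries were left out. In the same order, the number of all genes called was 224, 276 of 20360, 354, 656, 843, 378 and 120 to 242. In the mean over genotypes 2 were called, 6 without the filter, 5 with the replicate block, 9 with the block within genotype, 7 without mock replicate 2 and 1 to 4 in the leave-outs, with 4 without mock 6 h replicate 2. In the same order, the number of all genes called was 656, 709 of 20360, 943, 1492, 685 and 505 to 708. Same-numbered knockdown libraries had correlations of deviations from -0.00861 to 0.147 between 0 h and 6 h. Knockdown against mock, 0 chains were called in the mean over times and 4 without the filter, and at 30 min 0 were called, 1 without the filter and 0 to 1 in the leave-outs. In the same order, the number of all genes called was 1 and 26 of 20360, and at 30 min 1, 195 of 20360 and 0 to 741.

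Of the log2 fold changes of named chains, 2209 values under alternatives kept direction and call, 60 became called, 18 lost their call and 12 changed sign. The 18 are the losses of COL5A1 and COL18A1 given above. None of the 12 was called: at 6 h in mock COL6A3 was -0.05 without mock 6 h replicate 2, COL6A2 0.04, COL5A2 0.02 and COL6A1 0.01 without mock 0 h replicate 2, and COL27A1 -0.01 without mock 0 h replicate 3 and -0.02 without mock 6 h replicate 2. The leave-outs in mock reached 0.34 for COL6A3, -0.57 for COL6A2, -0.64 for COL5A2, -0.63 for COL6A1 and 0.32 for COL27A1 at the other end. In the knockdown COL6A3 was -0.04 without knockdown 0 h replicate 3 and up to 0.14 in the other leave-outs. Knockdown against mock at 1 h, COL6A2 was 0.03 without mock replicate 2 and 0.03 without its 1 h library alone (down to -0.44 in the other leave-outs), and in the mean over times without mock replicate 2 COL6A3 was 0.01, COL1A2 0.08 and COL5A2 0.04. The cause of these changes was not tested.

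Over all genes, the number called at 6 h in mock was 282, 699 with the block within genotype and 155 with only the groups compared. In the knockdown it was 224, 354 with the replicate block, 656 with the block within genotype, 378 without mock replicate 2 and 843 with only the groups compared. In the mean over genotypes it was 656, and 1492 with the block within genotype. At 1 h it was 6, against 13 without the filter, 10 by DESeq2, 10 with the replicate block and 18 with the block within genotype. Knockdown against mock at 30 min it was 1, against 195 without the filter, 33 by DESeq2, 0 by voom, 6 without mock replicate 2 and 0 with only the groups compared, at 6 h 0 against 4 by DESeq2, and in the mean over times 1 against 26 without the filter. Mean levels of the 12 named chains were lower without mock replicate 2, for example 257 against 297 CPM for COL3A1 and 63.1 against 63.6 CPM for COL12A1. With raw totals in place of TMM-scaled ones, COL3A1 had 299 and COL12A1 63.5 CPM. Depth limits the 21 chains under 1 CPM. Some of them had counts in most of the 24 libraries, such as COL11A1 in 22, COL4A6 in 21 and COL19A1 in 20. For those with counts in few libraries or none, low expression and none could not be told apart. All alternatives listed for the chains were run, and those for genes of the pathway lists were chosen after seeing the data.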
